A study of Mus musculus with 5 samples.

Results

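The core clock genes are the transcription factors and repressors that form the circadian oscillator inside single cells. They were followed here in cortical kidney tissue as 10 genes chosen by symbol (*Arntl*, *Clock*, *Npas2*, *Per1*, *Per2*, *Per3*, *Cry1*, *Cry2*, *Nr1d1* and *Dbp*). All 10 were found among the 24421 gene symbols counted in the 5 RNAseq libraries, and all 10 passed the filter on low counts. Each library came from 1 mouse on the C57BL6J background, 3 of them *Fnip1* null (Fnip1-/-, mice 8637, 9210 and 9121) and 2 wildtype (Fnip1+/+, mice 9055 and 9056). The null allele arose by ENU mutagenesis and is constitutive, so it is carried by all cell types of the tissue, and the labels name no treatment. Mouse 9210 is named by its label, and its file carries a different number. The study describes RNAseq of more wildtype mice than the labels name, so its full comparison was not repeated here. The labels call the controls Fnip1+/+, while the text of the study in places calls them Fnip1+/-. The question was which transcripts differ when Fnip1, a binding partner of Folliculin and AMPK, is absent. None of the sources used here gives the hour of collection, the light cycle, the feeding state, the age or the sex of single mice. The study gives only an age range in weeks for its RNAseq mice as a group.

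The oscillator is a loop of transcription and repression that takes about a day. *Arntl* (also called Bmal1) pairs with *Clock*, or with its relative *Npas2*, and the pair binds E-box elements to switch on the *Per* and *Cry* genes, whose proteins return to the nucleus and repress that pair. In a second loop the same pair switches on *Nr1d1* (Rev-erb alpha), which represses *Arntl*, and ROR proteins, which activate it. *Dbp* is a direct output: a transcription factor of the PAR bZip family that binds D-box elements and carries the rhythm to other genes. In most tissues, the kidney included, *Arntl* and *Npas2* peak at the opposite phase from *Nr1d1*, *Dbp* and the *Per* genes. The kidney clock is known for the daily rhythm of sodium transport and glomerular filtration, and AMPK can mark Cry1 for degradation.

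The elements through which these genes act on each other can be read before their transcript starts, and the stretches that hold one are shown for that reason. RefSeq promoters (GRCm38.p6) were matched for 9 of the 10 genes (all but *Per2*, which was not searched), 13 promoters in all. The 250 bases before each start were searched on both strands for 6 motifs. These were the E-box CACGTG, the E-prime box CACGTT, the D-box TTANGTAA, the ROR element as TAGGTCA or TGGGTCA, and the cyclic AMP response element TGACGTCA. A match was found in 5 of the 9 genes (5 of the 13 promoters), and in 11 of 25 other clock loop genes with a promoter in the table. The share of all genes with any of the 6 motifs was not counted, so neither count can be read as high or low. *Ciart*, a clock repressor that is not among the 10, is shown from these because its levels are compared with *Arntl* below. The stretches run 5′ to 3′ on the strand of the gene, with the matches in capitals (AACGTG is the E-prime box on the other strand), and hold no annotated exon base.
Cry1: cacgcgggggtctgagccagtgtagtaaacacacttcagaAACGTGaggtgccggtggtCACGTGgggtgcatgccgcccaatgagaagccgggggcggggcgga
Cry2: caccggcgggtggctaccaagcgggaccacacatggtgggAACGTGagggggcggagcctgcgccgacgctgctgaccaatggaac
Nr1d1: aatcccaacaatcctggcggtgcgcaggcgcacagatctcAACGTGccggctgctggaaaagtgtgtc
Per1: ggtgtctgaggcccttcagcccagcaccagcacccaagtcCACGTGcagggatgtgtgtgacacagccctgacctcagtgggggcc
Per3: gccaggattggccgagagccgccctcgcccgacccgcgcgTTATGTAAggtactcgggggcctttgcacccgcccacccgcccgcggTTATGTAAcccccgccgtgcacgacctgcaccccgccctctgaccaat
Ciart: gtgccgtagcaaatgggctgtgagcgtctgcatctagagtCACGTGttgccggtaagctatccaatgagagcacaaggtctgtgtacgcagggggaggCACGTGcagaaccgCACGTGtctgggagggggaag

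On GRCm38.p6 the *Cry1* stretch lies at chr10:85185069-85185173 (minus strand), the *Cry2* stretch at chr2:92434190-92434275 (minus strand) and the *Nr1d1* stretch at chr11:98775378-98775445 (minus strand). The *Per1* stretch lies at chr11:69098743-69098828 (plus strand), inside the longer gene model of GENCODE and between its exons. The *Per3* stretch lies at chr4:151044776-151044910 (minus strand) and that of *Ciart* at chr3:95882252-95882384 (minus strand). Counted from the transcript start, the E-box began at -60 in *Cry1* and at -166 in *Per1*, and the E-prime box at -79 in *Cry1*, -166 in *Cry2* and -28 in *Nr1d1*. *Per3* carried a pair of D-boxes at -205 and -158, and *Ciart* held E-boxes at -116, -58 and -44. Of 32851 mouse promoters of the same length, 6.02% held the E-box, 3.85% the E-prime box, 2.06% the D-box, 2.23% and 3.24% the 2 spellings of the ROR element and 1.55% the cyclic AMP response element. A match is a spelling in this window, not a measured binding site, and no match says only that these letters are not in it.

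**Figure D1:**
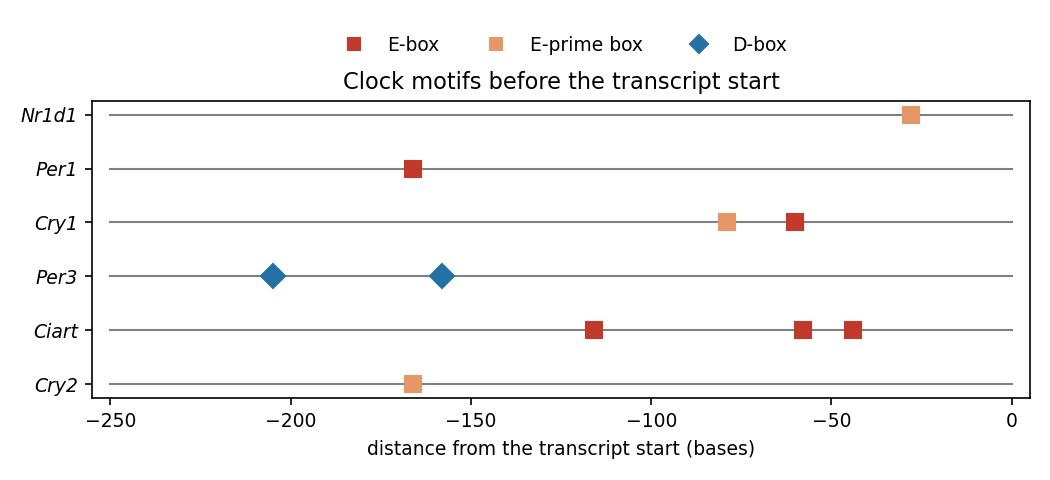
Motif matches in the 250 bases before the transcript start of 5 core clock genes and *Ciart*; the horizontal axis is the distance from the start in bases, and each symbol marks the first base of a match. *Ciart* holds 3 E-boxes, *Cry1* an E-box and an E-prime box, and *Per3* 2 D-boxes.

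Each library held between 15799114 and 19132145 reads counted on genes, so 3 counts correspond to 0.158 to 0.186 CPM (read counts scaled to library size with edgeR's TMM factors), and values below that could not be told from 0. *Fnip1* itself was lower in the null mice, at 16.0 to 21.0 CPM against 48.6 and 51.7 in wildtype mice, a log2 fold change of -1.48 (SE 0.136, edgeR quasi-likelihood test, adjusted p = 0.0313). All 6 proximal tubule markers on the fixed list were expressed, with a summed level of 7750 to 10012 CPM in null and 10544 to 11362 CPM in wildtype mice. *Lrp2*, *Slc34a1* and *Aqp1* lay below both wildtype mice in every null mouse (23.0% of all genes did). *Slc5a2* (log2 fold change 0.26) and *Slc5a12* (0.63) lay above both (22.9% of all genes), and none of the 6 was called. Mouse 9121 had 314 CPM of *Xist* and between 0 and 0.369 CPM of the 4 Y-linked genes *Ddx3y*, *Eif2s3y*, *Kdm5d* and *Uty*, while the other 4 mice had at most 1.41 CPM of *Xist* and 17.3 to 52.1 CPM of the Y-linked genes. Mouse 9121 was thus the only one of the 5 with transcripts of a female pattern, and the log2 fold changes without it are given below.

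No core clock gene passed the test between *Fnip1* null and wildtype cortex and their log2 fold changes ran from -0.83 (*Npas2*) to 0.54 (*Cry1*). With edgeR's quasi-likelihood test over 13874 genes, 0 of the 10 passed an FDR of 5% with or without the 2-fold threshold, where 0.533% of all genes passed both. Their adjusted p-values ran from 0.164 to 0.949 in that test. The exact test, which called 4.07% of all genes, the likelihood ratio test and DESeq2 also called 0 of the 10. At an unadjusted p under 0.05, 2 of the 10 passed (*Dbp* and *Cry2*), against 25.1% of all genes. All 3 null mice lay above both wildtype mice for the same 2 genes, against 22.9% of all genes, and below both for 0 of the 10, against 23.0%. The 2 of 10 were thus near the share over all genes. The median log2 fold change was 0.08 over the 10 genes and 0.00 over all genes, with 5 of the 10 above and 5 below zero. For 1 gene alone, the smallest p that exact permutation of 3 and 2 mice allows is 0.1.

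Without mouse 9121, 0 of the 10 genes were called as well. Their log2 fold changes were then -1.08 for *Arntl*, -0.15 for *Clock* and -1.20 for *Npas2*. Those of the repressors were 0.37 for *Per1*, 0.46 for *Per2*, 0.09 for *Per3*, 0.75 for *Cry1* and 0.37 for *Cry2*, and those of *Nr1d1* and *Dbp* were -0.25 and 0.28. With this mouse left out the lowest adjusted p of the 10 was 0.155, for *Per1* (edgeR quasi-likelihood).

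**Figure D2:**
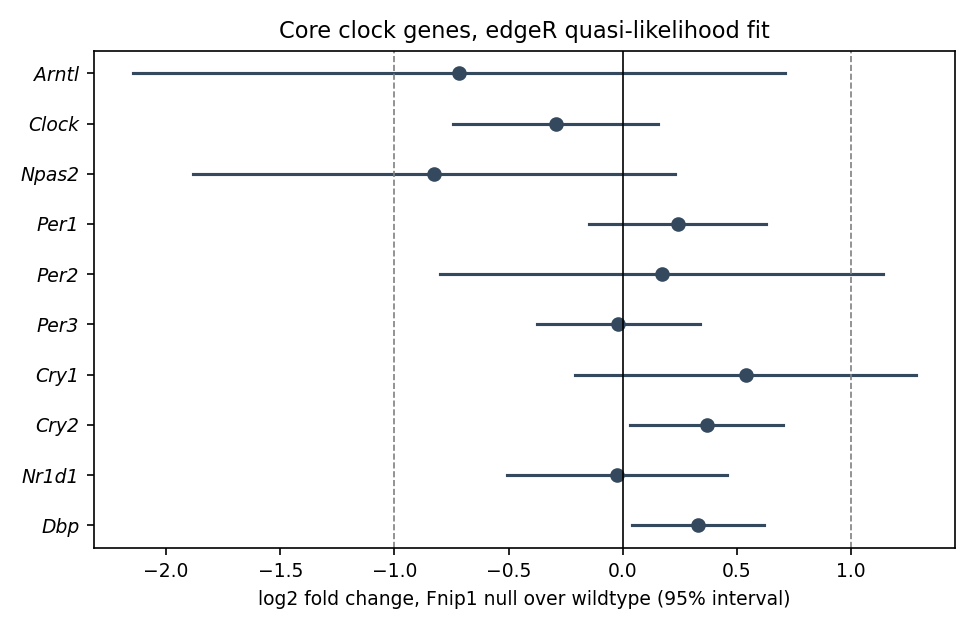
Log2 fold change of each core clock gene, *Fnip1* null over wildtype, from edgeR's quasi-likelihood fit; lines are 95% intervals and dashed lines mark a 2-fold difference. The intervals of *Cry2* and *Dbp* lie above zero before adjustment over all genes, and those of the other 8 genes cross it.

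The activators had the 3 most negative log2 fold changes of the 10 genes, and *Arntl* and *Npas2* the fewest reads. *Arntl* (ENSMUSG00000055116, chromosome 7, 113207465 to 113314126, GRCm38) is the partner without which the loop stops. It measured 0.530 CPM in null mouse 8637, 1.84 in 9210 and 2.16 in 9121, against 1.61 and 3.37 CPM in wildtype mice 9055 and 9056. The groups overlap, mouse 8637 being far below the others and mouse 9056 highest. These values rest on 9 to 59 reads, and the 95% Poisson intervals, which cover counting error only, were 0.242 to 1.01 CPM in mouse 8637 and 2.57 to 4.35 CPM in mouse 9056. These 2 intervals did not overlap. The log2 fold change was -0.72 (SE 0.592, edgeR quasi-likelihood, adjusted p = 0.48), with a 95% interval from -2.14 to 0.71, and it was -0.09 without wildtype mouse 9056, -0.31 without null mouse 8637 and -1.15 without wildtype mouse 9055.

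*Npas2* (ENSMUSG00000026077, chromosome 1, 39193731 to 39363236), which can stand in for Clock, measured 0.766, 0.772 and 1.42 CPM in null mice 8637, 9210 and 9121, against 1.24 and 2.29 CPM in mice 9055 and 9056. It had 13 to 40 reads per library, and mouse 9121 lay between the wildtype mice. Its log2 fold change of -0.83 (SE 0.438, edgeR quasi-likelihood, adjusted p = 0.286) became -0.32 without mouse 9056. *Clock* (ENSMUSG00000029238, chromosome 5, 76209868 to 76304792), the histone acetyltransferase partner of Arntl, was read at least 886 times in each library. Its levels were 72.6, 58.3 and 46.8 CPM in null mice 8637, 9210 and 9121 and 77.9 and 67.3 CPM in wildtype mice 9055 and 9056. Mouse 8637 fell inside the wildtype range, whereas the other 2 null mice lay below it. The mean was 59.2 ± 12.9 CPM (SD, n = 3) for null and 72.6 ± 7.48 (SD, n = 2) for wildtype mice, and the log2 fold change was -0.29 (SE 0.186, edgeR quasi-likelihood, adjusted p = 0.364). Without mouse 8637 it was -0.46 with an adjusted p of 0.0676 in that test.

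The 3 *Per* genes encode repressors that enter the nucleus with Cry proteins, and *Per1* and *Per2* are also switched on quickly by glucocorticoids and cyclic AMP. *Per1* (ENSMUSG00000020893, chromosome 11, 69095217 to 69109960) measured 98.2, 82.2 and 67.2 CPM in null mice 8637, 9210 and 9121, while mice 9055 and 9056 were close together at 70.6 and 69.0 CPM. The null mice lay on both sides of the wildtype pair. *Per2* (ENSMUSG00000055866, chromosome 1, 91415982 to 91459324) spread more: 77.1 CPM in mouse 8637, 41.6 in 9210 and 27.2 in 9121, against 45.9 and 40.5 CPM in the wildtype mice. Its highest and its lowest value were thus both in null mice, 2.84-fold apart, while the wildtype mice were 1.14-fold apart. The log2 fold changes were 0.24 for *Per1* (SE 0.161, adjusted p = 0.389) and 0.17 for *Per2* (SE 0.402, adjusted p = 0.821, edgeR quasi-likelihood). That of *Per1* was 0.10 without mouse 8637. That of *Per2* turned to -0.32 without mouse 8637 and was 0.46 without mouse 9121.

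*Per3* (ENSMUSG00000028957, chromosome 4, 151003652 to 151044665), the least essential of the 3 for the rhythm, had levels of 44.8, 39.0 and 32.6 CPM in null mice 8637, 9210 and 9121 and 41.0 and 37.6 CPM in mice 9055 and 9056. Its mean was 38.8 ± 6.08 CPM (SD, n = 3) in null and 39.3 ± 2.46 (SD, n = 2) in wildtype mice. The log2 fold change of -0.02 (SE 0.147, edgeR quasi-likelihood, adjusted p = 0.948, 95% interval -0.38 to 0.34) was smaller than its SE, and it was -0.13 without mouse 8637 and 0.09 without mouse 9121. In all 3 *Per* genes mouse 8637 was the highest and mouse 9121 the lowest of the 5 mice.

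The *Cry* genes encode the main repressors of the Arntl and Clock pair. *Cry1* (ENSMUSG00000020038, chromosome 10, 85131700 to 85185064) measured 8.77, 7.19 and 4.80 CPM in null mice 8637, 9210 and 9121, against 5.59 and 3.94 CPM in mice 9055 and 9056. Mouse 9121 again lay between the wildtype mice. Its log2 fold change of 0.54 was the largest positive one among the 10 (SE 0.309, edgeR quasi-likelihood, adjusted p = 0.321). It was 0.31 without mouse 9056, 0.33 without mouse 8637 and 0.81 without mouse 9055. *Cry2* (ENSMUSG00000068742, chromosome 2, 92403646 to 92434043) measured 36.4, 29.5 and 32.6 CPM in null mice 8637, 9210 and 9121 and 27.9 and 23.0 CPM in mice 9055 and 9056. The groups did not overlap, but the lowest null mouse and the higher wildtype mouse were 29.5 and 27.9 CPM. The mean was 32.8 ± 3.44 CPM (SD, n = 3) against 25.5 ± 3.51 (SD, n = 2), a log2 fold change of 0.37 (SE 0.139, edgeR quasi-likelihood, adjusted p = 0.176, 95% interval 0.03 to 0.70). It was 0.23 without wildtype mouse 9056. An antisense transcript, D930015M05Rik, shares 4.67% of the exonic bases of *Cry2*, and whether counting used strand is not given in the sources used here.

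*Nr1d1* and *Dbp* are the strongest direct targets of the Arntl and Clock pair in many tissues. *Nr1d1* (ENSMUSG00000020889, chromosome 11, 98767932 to 98775333), a haem-binding repressor, measured 94.8, 81.1 and 132 CPM in null mice 8637, 9210 and 9121, while mice 9055 and 9056 were nearly equal at 105 and 104 CPM. The null mice lay on both sides of the wildtype mice, with 9121 highest and 9210 lowest of all. The log2 fold change was -0.03 (SE 0.2, edgeR quasi-likelihood, adjusted p = 0.949, 95% interval -0.51 to 0.46), and it was -0.25 without mouse 9121 and 0.12 without mouse 9210. *Dbp* (ENSMUSG00000059824, chromosome 7, 45705088 to 45710203) measured 172 CPM in null mouse 8637, 142 in 9210 and 173 in 9121, against 134 and 125 CPM in mice 9055 and 9056. All null mice were above both wildtype mice, with a gap of 142 against 134 CPM at the edge. Its mean was 163 ± 17.5 CPM (SD, n = 3) against 129 ± 6.25 (SD, n = 2), and its log2 fold change of 0.33 (SE 0.119, 95% interval 0.04 to 0.62) had the lowest adjusted p of the 10 (edgeR quasi-likelihood, 0.164). On the opposite strand, *Sphk2* shares 18% of the exonic bases of *Dbp* and *Thra* 8.55% of those of *Nr1d1*. The strand setting of the counting is not given, so both levels are uncertain there.

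**Figure D3:**
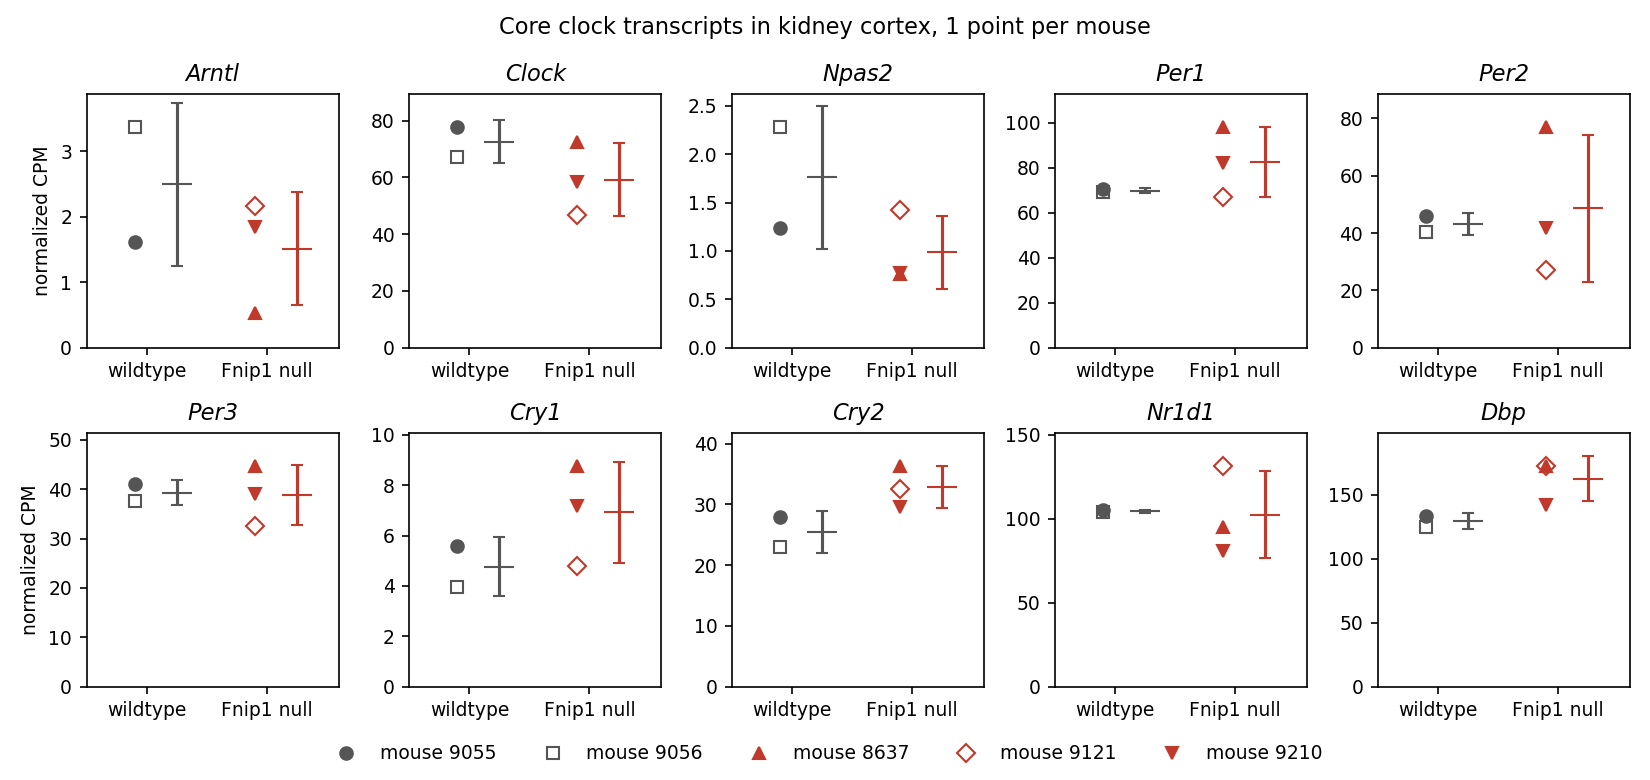
Normalized CPM of the 10 core clock genes in each mouse (grey, wildtype, red, *Fnip1* null), with the mean and SD of each group beside the points and each vertical axis starting at 0. Only *Cry2* and *Dbp* have all 3 null mice above both wildtype mice; mouse 8637 is lowest for *Arntl* and highest for *Per2* (77.1 CPM), and mouse 9121 is lowest for *Per2* (27.2 CPM).

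Set on a common scale of CPM per kilobase of annotated exon, the output gene and *Nr1d1* were far above the activators. *Dbp* averaged 49.9 CPM per kilobase over the 5 mice, *Nr1d1* 33.6, *Per1* 13.8 (11.9 to 17.4), *Per2* 7.94 and *Cry2* 4.73. *Clock* averaged 4.70 CPM per kilobase, *Per3* 4.06, *Cry1* 1.81, *Npas2* 0.271 and *Arntl* 0.253. *Nr1d1* and *Per1*, *Per3* and *Cry1*, and *Cry1* and *Npas2* were neighbours in this order whose ranges over the mice did not overlap. The ranges of all other neighbours overlapped, although *Dbp* was above *Nr1d1*, *Per1* above *Per2* and *Clock* above *Per3* in 5 of 5 mice. *Clock* exceeded its relative *Npas2* by 3.36 to 5.05 on the log2 scale per kilobase, and *Cry1* was below *Cry2* by 1.12 to 1.84 on that scale, in each mouse.

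The ratio of 2 genes inside 1 library does not depend on how libraries are scaled. Per kilobase, *Dbp* was 93.1-fold above *Arntl* in wildtype mouse 9056 and 208-fold in wildtype mouse 9055. Among null mice it was 194-fold in 9210, 201-fold in 9121 and 818-fold in 8637. The measured ratios of mice 9055, 9210 and 9121 thus lay close together across the genotypes, with 9056 and 8637 at the 2 ends. *Nr1d1* over *Arntl* gave the same ends, 75.2-fold in 9056 and 437-fold in 8637, with 159-fold in 9055, 108-fold in 9210 and 149-fold in 9121. *Per3* over *Npas2* was 8.19-fold in 9056, 11.4-fold in 9121, 16.5-fold in 9055, 25.2-fold in 9210 and 29.2-fold in 8637. In all 3 ratios the groups overlapped. *Arntl* had 9 to 59 reads per library and *Npas2* 13 to 40, so counting error alone leaves each ratio uncertain.

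Mouse by mouse, the deviations of the clock genes followed their roles in part. Relative to the mean of the 5 mice on the log2 scale, mouse 8637 was at -1.46 for *Arntl* and -0.58 for *Npas2*, and at 0.81 for *Per2*, 0.58 for *Cry1*, 0.36 for *Per1* and 0.22 for *Dbp*. In the same mouse the activator *Clock* was at 0.19 and *Nr1d1* at -0.11. Wildtype mouse 9056 was at 0.98 for *Arntl* and 0.87 for *Npas2* and at -0.55 for *Cry1*, -0.36 for *Cry2* and -0.24 for *Dbp*, with *Nr1d1* at 0.03. Mouse 9121 was at -0.69 for *Per2*, -0.44 for *Clock*, -0.27 for *Cry1* and -0.25 for *Per3*, and at 0.37 for *Nr1d1*, 0.36 for *Arntl*, 0.22 for *Dbp* and 0.14 for *Cry2*, so activators as well as *Per* and *Cry* repressors lay on both sides. Mouse 9210 was farthest from the mean for *Npas2* (-0.57) and *Nr1d1* (-0.33), and mouse 9055 for *Clock* (0.29). Mouse 8637 held the highest value of the 5 mice for 5 of the 10 genes and mouse 9121 the lowest for 4.

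Over the 10 genes, the root mean square log2 difference between 2 mice was smallest across the genotypes, at 0.31 between wildtype mouse 9055 and null mouse 9210. The wildtype pair differed by 0.46, and the null pairs by 0.47 (9210 and 9121), 0.62 (8637 and 9210) and 0.90 (8637 and 9121). The largest distance was 1.06, between 8637 and 9056. Over all genes tested, by contrast, the wildtype pair was the closest at 0.37, and mice 9055 and 9210 differed by 0.60. This order depended on *Arntl* and *Npas2*, since without them the wildtype pair was closest, at 0.23, and mice 9055 and 9210 were at 0.26. The ratio of the highest to the lowest mouse was wider in the null group for all 10 genes, but that group has 3 mice and the other 2, so the spreads cannot be compared on these ratios.

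**Figure D4:**
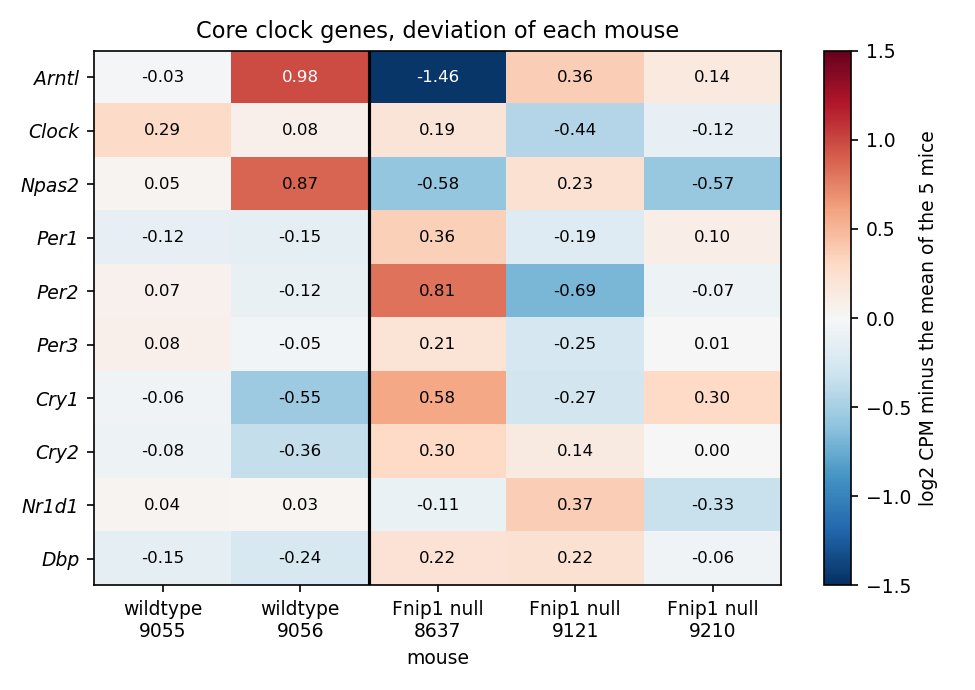
Log2 CPM of each core clock gene in each mouse minus the mean of the 5 mice, in blue where lower and red where higher, with the values printed. Mouse 8637 is low for *Arntl* (-1.46) and *Npas2* (-0.58) and high for *Per2* (0.81) and *Cry1* (0.58), and wildtype mouse 9056 is high for *Arntl* (0.98) and *Npas2* (0.87) and low for *Cry1* (-0.55).

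Genes outside the 10 were ranked by how closely they followed *Arntl* and *Dbp* over the 5 mice, as the root mean square difference of centred log2 CPM among 13272 other genes with a mean of at least 1 CPM. The mirror image of *Arntl* was led by *Fga* (0.36), *C4b* (0.38), *Alas1* (0.39), *Ciart* (0.39) and *F5* (0.42). *Alas1*, the first enzyme of haem synthesis, measured 457 CPM in mouse 8637 and 161 to 222 CPM in the other 4 mice. *Ciart*, the repressor whose 3 E-boxes are shown above, measured 23.2, 13.96 and 11.2 CPM in null mice 8637, 9210 and 9121 against 10.8 and 9.03 CPM in mice 9055 and 9056. Among the clock genes, *Cry1* was at rank 16 of this mirrored list, *Per2* at 25, *Bhlhe41* at 92, *Cry2* at 198 and *Per1* at 200. *Per3*, *Nr1d1* and *Dbp* ranked behind *Sirt1*, which was at rank 498. The genes most alike *Arntl* were 9430083A17Rik (0.38), Gm5475 (0.39), *Irs3* (0.42), *Zfp239* (0.44) and *Il3ra* (0.45), with *Npas2* at rank 22 (0.51).

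*Dbp* varied little, so many genes came near it. The most alike were *Mis18a* (0.02), *Sipa1l3* (0.03), *Sfxn4*, *Hic2* and *Zfp704* (each 0.05), and the most mirrored were *Slc11a2*, *Mir22hg*, *Mapk10*, *Wbscr22* and *Mrpl20* (0.03 to 0.04). *Cry2* was at rank 43 of those alike and *Sirt1* at rank 34. These rankings describe 5 libraries and carry no test.

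Of 34 other genes of the clock loops, all were tested, and 0 passed an FDR of 5% in edgeR's quasi-likelihood test. Over all 13874 genes tested, 102 passed that FDR, so a count of 0 is near that share. At an unadjusted p under 0.05, 5 of the 34 passed, against 25.1% of all genes, 4 of them higher and 1 lower in null mice (13.9% and 11.2% of all genes). DESeq2, the likelihood ratio test and the exact test each called 2 of them at FDR 5% and 2-fold, *Rorb* and *Bhlhe41*, where they called 3.47%, 4.53% and 4.07% of all genes. The median log2 fold change of the 34 was -0.02, with 7 genes above and 5 below both wildtype mice in all null mice (22.9% and 23.0% of all genes). The counts at the unadjusted p and of groups that did not overlap were near or under the shares over all genes. The 2 genes called by the other tests are too few to set against a share. *Rorb*, a ROR receptor, measured 2.41, 2.20 and 1.85 CPM in null mice 8637, 9210 and 9121 against 0.869 and 0.400 CPM in mice 9055 and 9056, a log2 fold change of 1.76 (SE 0.406, edgeR quasi-likelihood, adjusted p = 0.0892, exact test, 0.00335). *Bhlhe41* (Dec2), which represses E-box genes, measured 16.6, 11.6 and 15.2 CPM against 7.76 and 5.83 CPM, a log2 fold change of 1.09 (SE 0.219, edgeR quasi-likelihood, adjusted p = 0.0743, exact test, 0.0015). *Csnk1e*, a casein kinase that marks Per proteins for degradation, measured 17.3, 24.4 and 22.2 CPM against 12.3 and 10.2 CPM (log2 fold change 0.92, SE 0.186, edgeR quasi-likelihood, adjusted p = 0.0746). In these 3 genes each null mouse stood above both wildtype mice.

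*Fbxl21*, an F-box protein that binds Cry proteins, was at 2.32 to 3.80 CPM in null and 5.26 and 5.71 CPM in wildtype mice (log2 fold change -0.88, SE 0.264, edgeR quasi-likelihood, adjusted p = 0.122). The log2 fold changes of *Ciart*, *Timeless* and *Arntl2* were 0.70, 0.66 and 0.62, and that of *Fbxw11*, which helps degrade Per proteins, was -0.41 (edgeR quasi-likelihood, adjusted p from 0.197 to 0.368). Relatives of the 10 genes, named after their values were seen, were: *Nr1d2*, the partner repressor of *Nr1d1*, at 0.02, and *Tef* and *Hlf*, the relatives of *Dbp*, at -0.19 each, all overlapping between the groups. *Tef* measured 484, 393 and 336 CPM in null mice 8637, 9210 and 9121 and 463 CPM in both wildtype mice. The order of the null mice in *Tef* and *Hlf* was thus that of *Clock* and the *Per* genes and not that of *Dbp*.

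**Figure D5:**
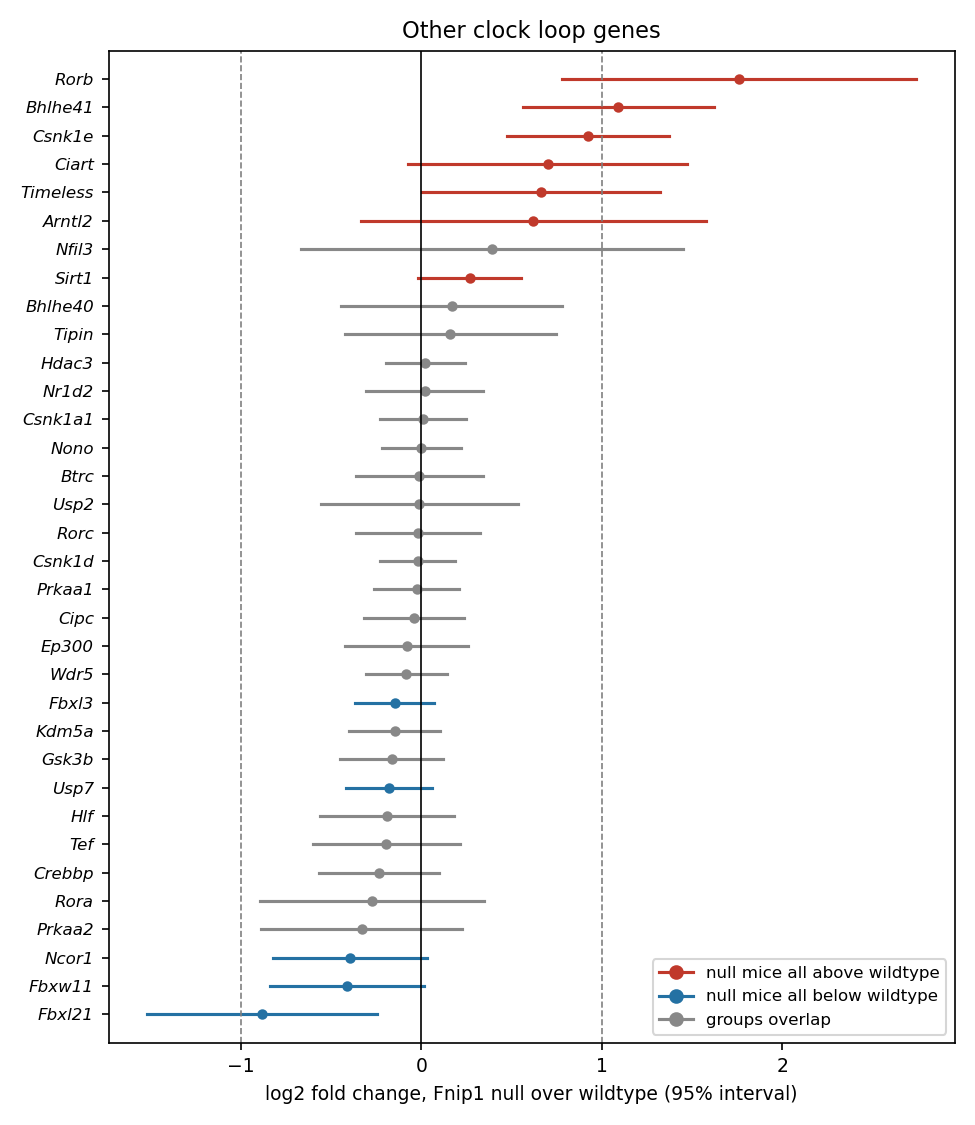
Log2 fold change of the 34 other clock loop genes, *Fnip1* null over wildtype, with 95% intervals from edgeR's quasi-likelihood fit and dashed lines at a 2-fold difference; red and blue mark genes whose null mice all lie above or below both wildtype mice. *Rorb* (1.76) and *Bhlhe41* (1.09) are at the top and *Fbxl21* (-0.88) at the bottom. None passes an FDR of 5%, which 102 of all 13874 genes do.

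Of 15 listed outputs of the clock, 14 were tested, and 0 had an adjusted p under 0.05 by quasi-likelihood. Of all 13874 genes tested, 102 had one, so a count of 0 is near that share. The median log2 fold change was 0.19, and 4 of the 14 passed an unadjusted p under 0.05, 3 higher and 1 lower, near the 25.1% of all genes. *Cdkn1a*, a cell cycle inhibitor, measured 13.4, 13.0 and 10.3 CPM in null mice 8637, 9210 and 9121 against 6.15 and 6.002 CPM in the wildtype mice, a log2 fold change of 1.01 (SE 0.176, edgeR quasi-likelihood, adjusted p = 0.0637). It was the 1 gene of the 14 called by DESeq2, the likelihood ratio test and the exact test, where these called 3.47%, 4.53% and 4.07% of all genes. *Scnn1a*, the alpha subunit of the epithelial sodium channel and a known target of Per1, measured 230 to 277 CPM in null and 149 and 154 CPM in wildtype mice (log2 fold change 0.70, SE 0.12, edgeR quasi-likelihood, adjusted p = 0.0632). *Sgk1*, the kinase that raises that channel at the membrane, measured 194, 323 and 199 CPM in null mice 8637, 9210 and 9121 and 147 and 146 CPM in wildtype mice (log2 fold change 0.70, SE 0.238, adjusted p = 0.146 in that test). The markers of the collecting duct, where this channel acts, were higher in the same mice. All 3 listed markers lay above both wildtype mice in every null mouse, as did 22.9% of all genes. These markers had a summed level of 451 to 617 CPM against 306 and 323 CPM. Their part in these values was not tested, and in whole tissue more cells of a type and more RNA per cell cannot be told apart.

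Glucocorticoids reset peripheral clocks and act on *Per1* and *Per2*, so a list of 14 responsive genes was read beside them. By quasi-likelihood 0 of the 14 had an adjusted p under 0.05, where 102 of all 13874 genes did. At an unadjusted p under 0.05 in that test, 4 passed, all higher in null mice, where 13.9% of all genes passed in that direction. The exact and likelihood ratio tests called 2 (*Cdkn1a* and *Lcn2*) and DESeq2 called 3 (*Zbtb16* as well), where these tests called 4.07%, 4.53% and 3.47% of all genes. The median log2 fold change was 0.34, and this list shares *Cdkn1a*, *Sgk1*, *Tsc22d3* and *Pdk4* with the outputs. *Lcn2*, which also marks injured tubules, measured 3.18, 5.35 and 2.80 CPM in null mice 8637, 9210 and 9121 against 0.745 and 0.686 CPM in the wildtype mice. *Zbtb16* measured 18.3, 6.95 and 2.32 CPM in the null mice in the same order and 2.79 and 1.72 CPM in mice 9055 and 9056, and *Fkbp5*, a chaperone of the glucocorticoid receptor named here after its values were seen, measured 283, 169 and 44.0 CPM against 155 and 127 CPM. Both ran from 8637 over 9210 down to 9121 among the null mice. So did 7 of the 14 listed genes in all, with 7 in another order, and 5 of the 10 core clock genes (*Per1*, *Per2*, *Per3*, *Clock* and *Cry1*). The share of all genes in this order was not counted, so neither count can be read as particular to these genes. Over all genes tested, the root mean square log2 difference was 0.60 between 8637 and 9121. Mouse 9210 was at 0.44 from 8637 and 0.43 from 9121. The part of glucocorticoids in the levels of the *Per* genes was not tested.

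Other cell types also differed between the libraries. The summed level of the 4 podocyte markers was 574 to 683 CPM in null and 320 and 323 CPM in wildtype mice, each of the 4 above both wildtype mice in every null mouse. Of all genes, 22.9% lay above and 23.0% below both wildtype mice in every null mouse. The 3 endothelial markers summed to 183 to 240 CPM against 102 and 166 CPM. For the 4 markers of the thick ascending limb and distal tubule the sums overlapped, at 7950, 8107 and 11509 CPM in null mice 8637, 9210 and 9121 against 7507 and 8387 CPM. Of the 7 leukocyte markers tested, 6 had positive log2 fold changes, and 4 (*Ptprc* 1.03, *Cd68* 1.52, *C1qa* 1.08 and *Itgam* 1.42) lay above both wildtype mice in every null mouse. These 4 had adjusted p-values of 0.0975 to 0.128 by edgeR quasi-likelihood, while DESeq2, the likelihood ratio test and the exact test each called 4 of the 7. These 3 tests called 3.47%, 4.53% and 4.07% of all genes. *Csf1r* lay below both, at 36.4 to 63.8 CPM against 68.4 and 72.3 CPM, and the B cell marker *Cd79a* was at 0 in all 3 null mice. The sum of all 8 markers, 87.2 to 190 CPM against 94.9 and 115 CPM, overlapped between the groups. The 6 adipocyte markers summed to 54.0 CPM in mouse 8637, 347 in 9210 and 162 in 9121 against 35.3 and 36.4 CPM in wildtype mice. Mouse 9210, where adipocyte markers were highest, was lowest for *Nr1d1* and shared the lowest read count of *Npas2* (13 reads) with mouse 8637. The other core clock genes had their highest and lowest values in other mice. Such a ranking does not measure what adipocytes contribute to a level. The part of these cell types in the clock values was not tested.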

How the data were processed

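RNA was purified from cortical kidney tissue of 3 *Fnip1* null and 2 wildtype mice, and each library was 1 mouse. Per the submitters' processing notes and the study's methods, reads were aligned to mm10 with TopHat2 (2.1.0) and counted per gene with HTSeq (0.6.1). The deposited values are raw read counts per gene symbol, made by the authors without normalization; the 5 HTSeq summary rows of each file were left out (reads on no feature, 13.8 to 15.5%; ambiguous reads, 1.07 to 1.12%).

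Genes with fewer than 10 counts in more than 2 mice were removed, leaving 13874 of 24421. Counts were scaled by TMM and compared with the quasi-likelihood test of edgeR (4.0.16) in R (4.3.3), with Benjamini-Hochberg adjustment over all genes tested. A gene was called at an FDR of 5% and a 2-fold difference. CPM used TMM-scaled library sizes, and log2 CPM a prior count of 2. Lengths and coordinates came from the GENCODE annotation of GRCm38, and promoters from RefSeq (GRCm38.p6). The scripts were tested on simulated data. Alternatives were the exact and likelihood ratio tests, DESeq2 (1.42.0), other scalings and filters, and leaving out each mouse. A newer quasi-likelihood method was added after seeing the data, because the planned legacy method was the default.

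The 10 genes and the lists were chosen with earlier results of these data known. Named genes were the 10 members, *Fnip1*, the 8 other loop genes and the 3 genes of each further list with the largest absolute log2 fold change, and the 5 genes most alike and most mirrored to *Arntl* and *Dbp*; others are marked where they stand. Mice are the replicates; the labels do not give litters or cages.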

Additional observations from a re-analysis of the deposited data

How the results depend on the processing

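Core clock genes called, and those past the FDR alone, stayed at 0 of 10 under each of the 13 alternatives that differ from the main settings, among them the newer quasi-likelihood method added after seeing the data. The legacy method was the default and so the same fit, and is not counted. Of the 130 log2 fold changes of the 10 genes under these, 123 kept their direction and 7 reversed. With library size only, *Per3* was at 0.13 and *Nr1d1* at 0.14, moved by about the shift of 0.16 in the median of all genes. Leaving out 1 mouse, *Per2* ranged from -0.32 (without 8637) to 0.46 (without 9121), *Per3* from -0.13 (without 8637) to 0.092 (without 9121, with 0.046 without 9055) and *Nr1d1* from -0.25 (without 9121) to 0.12 (without 9210, with 0.031 without 8637). *Arntl* ranged from -1.15 (without 9055) to -0.09 (without 9056). Other clock loop genes called were 2 with DESeq2, the likelihood ratio test and the exact test, and 0 to 2 leaving out 1 mouse (2 without 8637, *Csnk1e* and *Rorb*). Clock outputs called were 1 with each of these 3 tests and 0 to 1 leaving out 1 mouse (*Cdkn1a*, without 9121). Glucocorticoid-responsive genes called were 3 with DESeq2 and 2 with the other tests, 1 with no filter (*Lcn2*), and 0 to 2 leaving out 1 mouse (1 without 8637, 2 without 9121). The cause of these changes was not tested. Leaving out a wildtype mouse leaves 1, assumed to vary like the null mice. No paired analysis was possible because the groups share no replicate number. *Arntl* and *Npas2* had 9 to 59 reads per library, so their values carry the widest counting intervals of the 10.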
